A study of Mus musculus with 12 samples.

Results

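The genes described here are the integrin subunits (symbols Itga or Itgb followed by a number or a letter) with Ilk, Parva, Parvb, Ptk2, Pxn, Fermt2, Lims1, Lims2, Cdh2 and Cdh11, 37 genes of the 55414 identifiers in the count table. They comprise 18 alpha and 9 beta subunits and 10 other genes. After the filter on low counts 29 could be tested. The 19 with a mean of at least 5 CPM (counts scaled to a common library size) are described one by one.

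Integrins are cell surface receptors built from 1 alpha and 1 beta subunit, and they hold a cell to its matrix. Inside the cell the beta tail is bound by talin and kindlin and, through ILK, the PINCH proteins and the parvins, it is tied to actin. Focal adhesion kinase and paxillin carry the signal from these sites, and classical cadherins hold cells to each other. Preadipocytes lose their spread, matrix-attached shape as they become round fat cells. FHL2, a LIM-only adaptor, is known to bind the tails of several integrin subunits.

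The libraries hold polyadenylated RNA of 3T3-L1, an established mouse line of preadipocytes that turn into fat cells after a hormone cocktail. Cells made to overexpress FHL2-GFP were set beside cells carrying CTRL-GFP, at day 0, after confluence, and at day 2. Both day 2 groups had been treated with 170 nM insulin, 1 uM dexamethasone and 0.5 mM isobutylmethylxanthine, and serum was present throughout. Each of the 4 groups (control day 0, FHL2 day 0, control day 2, FHL2 day 2) has 3 libraries. The labels do not say how the GFP constructs were introduced, whether a line is 1 clone, or whether the 3 libraries came from separate cultures, so p-values measure only the spread between libraries, which may be technical. No group was kept to day 2 without the cocktail, so that time in culture and the cocktail cannot be told apart, and in bulk RNA fewer cells of a type and less RNA per cell cannot be told apart either.

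Depth ranged from 10047708 to 21872139 counts per library. Day 2 libraries held 12689 to 16131 genes with a count and day 0 libraries 17977 to 18811, and the biological coefficient of variation estimated by edgeR was 0.39 at day 2 against 0.12 at day 0. Control replicate 3 and FHL2 replicates 1 and 2 of day 2, the 3 libraries with the fewest genes, are called the sparse libraries below. Fhl2 itself stood at 61.2 ± 2.40 CPM (SD, n = 3) in control and 62.7 ± 4.35 in FHL2 libraries at day 0, and at 16.3 ± 4.03 and 17.1 ± 6.49 at day 2. The Fhl2 count was thus not higher in the libraries labelled FHL2, and every direction between the lines below follows the labels alone. All 7 preadipocyte and fibroblast markers had counts, with summed levels of 9848 to 13820 CPM, although the labels call the cells mesenchymal stem cells. Of 5 tested adipocyte markers, 5 rose from day 0 to day 2 in control and 4 in the FHL2 line. The 6 listed adipocyte markers summed to 127.9 to 152.5 CPM at day 0 and 199.8 to 263.2 CPM at day 2 in control libraries. In FHL2 libraries the sums overlapped between the days, at 151.5 to 184.6 and 152.9 to 225.8 CPM. Fabp4, a fatty acid carrier of fat cells, went from a mean of 0.919 to 15.9 CPM in control and from 0.334 to 8.67 CPM in the FHL2 line. The lipid droplet protein gene Plin1 averaged 15.8 and 4.16 CPM at day 2, from no count at day 0. The part of these markers in the day changes below was not tested. Counts were found for 4 of 6 epithelial markers (summed 0 to 1.52 CPM per library, Epcam and Krt18 at 0), 2 of 5 muscle markers (0.541 to 5.13 CPM, Myod1, Myog and Ckm at 0) and 3 of 4 platelet markers (Gp1bb at 0). All 6 endothelial markers had counts, summing to 0.779 to 6.03 CPM, as had 6 of 8 macrophage and leukocyte markers.

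Between day 0 and day 2 single integrin and adaptor genes changed in opposite directions. Itga5 and the adaptors Pxn and Parvb rose together with Ilk in both lines, while Itgav, Itgb1, Fermt2, Lims1, Ptk2 and Cdh11 fell. In the control line 4 of the 29 tested genes rose and 12 fell. Of all 14435 genes tested, 26.3% were called higher and 30.8% lower in that comparison. In the FHL2 line 4 rose and 14 fell, beside 25.8% and 30.2% of all genes. The median log2 fold change over the tested genes was -0.48 in control and -0.88 in FHL2 libraries, against -0.14 and -0.11 over all genes tested. Taken gene by gene, the difference between the lines in this change had a median of 0.01, beside 0.02 over all genes. The 4 genes that rose did so in both lines, and 11 of those that fell, fell in both. Itgal was called lower only in the control fit, and Itga6, Itga10 and Itgb2 only in the FHL2 fit, but no difference between the lines passed the test. Levels are CPM after TMM scaling, and calls are edgeR quasi-likelihood tests at a Benjamini-Hochberg adjusted p under 0.05 over all genes tested.

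These changes went along with base composition. The 4 genes that rose had transcripts of 52.8% to 58.7% GC, and those that fell in control had 43.1% to 55.7% (median 46.0%), around a median of 49.8% over all tested genes. The fits were therefore repeated with an offset fitted as a curve of GC content in every library, which by its construction removes the average relation of level with GC content. With the GC offset 5 of the tested genes rose and 6 fell in control and 5 rose and 7 fell in the FHL2 line. Over all genes 24.6% rose and 14.3% fell in control, and 23.2% and 14.9% in the FHL2 line, with the all-gene median moving to 0.11 and 0.09. The part of GC content in the day changes was not tested beyond this.

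**Figure D1:**
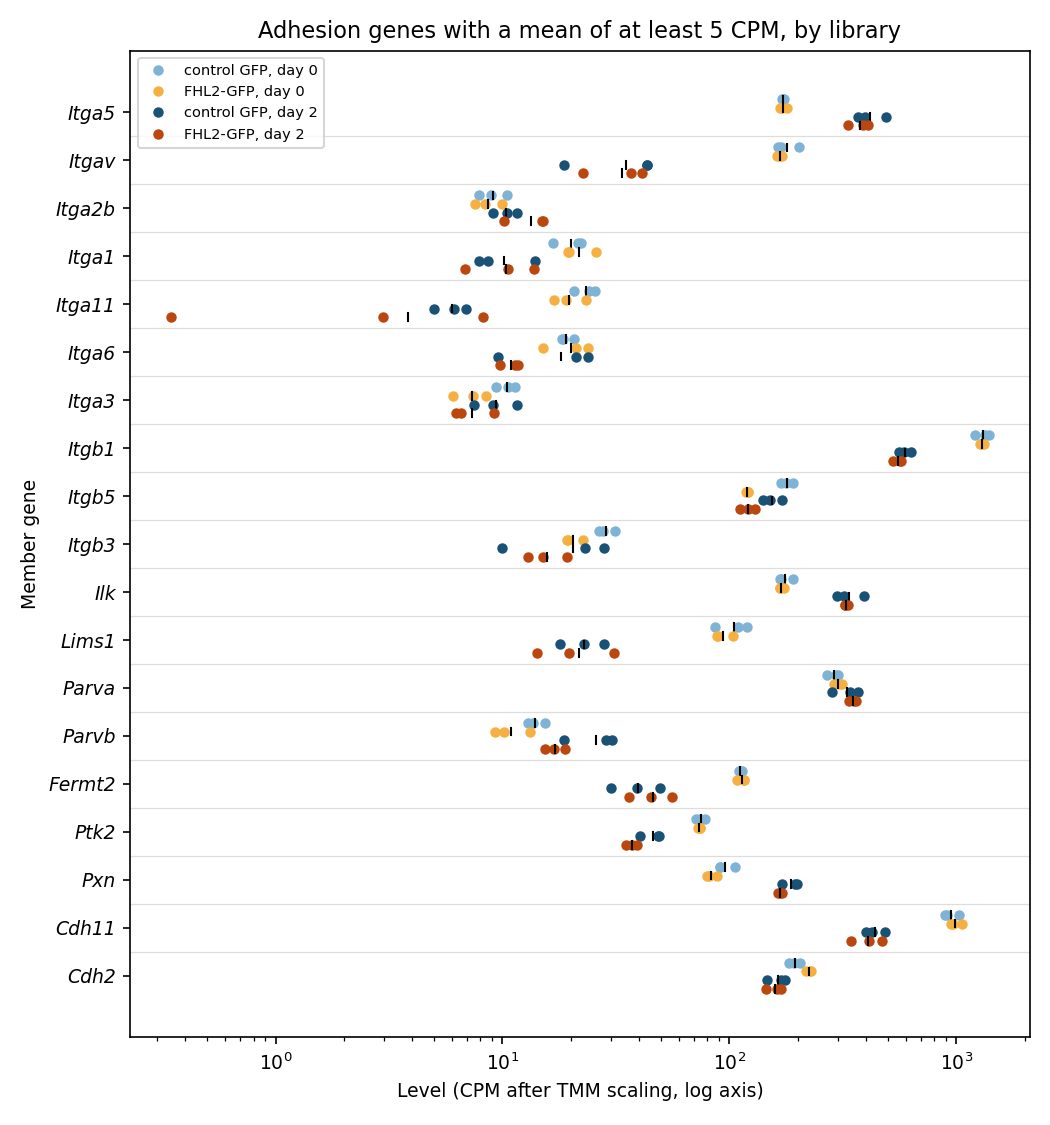
Level of each of the 19 adhesion genes in all 12 libraries, as CPM after TMM scaling on a log axis; each dot is 1 library, colours mark the 4 groups and black ticks the group means (n = 3). Itga5 lies at 168 to 180 CPM at day 0 and at 334 to 488 at day 2, while Itgav falls from 163 to 203 CPM to between 18.6 and 43.3.

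Among the alpha subunits, Itga5 encodes the subunit that pairs with beta 1 as the main fibronectin receptor. Its level was 175, 171 and 172 CPM in the 3 control libraries of day 0 and 168, 171 and 180 CPM in those of FHL2. At day 2 it was 488, 396 and 370 CPM in control and 387, 406 and 334 CPM in FHL2 libraries. Every day 2 library lay above every day 0 library. The rise was 2.42-fold in control (log2 1.28, SE 0.11, adjusted p = 2.38e-07) and 2.17-fold in the FHL2 line (log2 1.12, SE 0.11, adjusted p = 8.18e-07). With the GC offset it was 0.68 and 0.54 on the log2 scale and was still called in both lines.

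Itgav encodes the alpha V subunit, which pairs with several beta subunits to bind vitronectin and other ligands with an RGD motif. It went the other way. Day 0 levels were 203, 169 and 164 CPM in control and 163, 167 and 170 CPM in FHL2 libraries. At day 2 control libraries held 43.3, 43.3 and 18.6 CPM and FHL2 libraries 37.0, 41.4 and 22.5 CPM. The days did not overlap in either line, and the lowest day 2 value of control came from sparse replicate 3. Itgav fell 5.06-fold in control (log2 -2.34, SE 0.27, adjusted p = 4.35e-06) and 4.95-fold in the FHL2 line (log2 -2.31, SE 0.27, adjusted p = 4.94e-06), and with the GC offset it was called lower at -1.68 and -1.66.

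The 2 genes are shown with the 250 bases before their RefSeq start sites because they are the most abundant alpha subunits per length and moved in opposite directions. Windows are given 5′ to 3′ on the gene's strand, on build GRCm38.p6, while the counts were made on GRCm39. Itga5 lies at chr15:103366792-103367041 on the minus strand and Itgav at chr2:83724147-83724396 on the plus strand. Capitals mark matches to any of 7 motifs searched on both strands: the GC box GGGCGG, AP-1 TGANTCA, CRE TGACGTCA, the glucocorticoid half-site AGAACA, TEAD CATTCC, C/EBP TTGCNNAA and the CArG box.
Itga5: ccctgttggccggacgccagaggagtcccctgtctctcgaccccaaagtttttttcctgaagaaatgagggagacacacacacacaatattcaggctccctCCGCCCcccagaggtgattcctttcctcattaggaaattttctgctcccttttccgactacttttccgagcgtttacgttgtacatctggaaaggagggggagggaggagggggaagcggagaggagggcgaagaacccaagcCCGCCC
Itgav: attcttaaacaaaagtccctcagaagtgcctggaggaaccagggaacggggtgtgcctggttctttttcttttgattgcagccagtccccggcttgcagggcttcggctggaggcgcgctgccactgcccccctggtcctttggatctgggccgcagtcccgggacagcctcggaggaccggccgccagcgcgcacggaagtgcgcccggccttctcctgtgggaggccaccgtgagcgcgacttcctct
The Itga5 window held 2 GC boxes, and the Itgav window none of the 7. GC boxes were found in 32.7% of all 32851 windows of this length and in 11 of the 28 windows of the 23 genes here that have one. No window of these genes held the CRE (1.55% of all windows) or the C/EBP letters (9.56%), and 4 held the glucocorticoid half-site (16.1%), 2 the TEAD (12.6%), 2 the CArG (1.47%) and 1 the AP-1 letters (6.75%). A match is a run of letters and not a shown binding site.

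The other alpha subunits stood far lower. Itga11 encodes a collagen receptor subunit of fibroblasts. It was read at 20.7, 25.5 and 24.1 CPM in control and 16.8, 23.2 and 19 CPM in FHL2 libraries at day 0. On day 2 it was at 6.89, 6.10 and 4.98 CPM in control and at 0.347, 8.22 and 2.97 CPM in FHL2 libraries, where sparse replicate 1 was far below the rest. Itga11 fell 3.89-fold in control (log2 -1.96, SE 0.59, adjusted p = 0.0107) and 5.13-fold in the FHL2 line (log2 -2.36, SE 0.60, adjusted p = 0.00394). Its transcripts have 55.7% GC, the highest among the genes that fell, and with the GC offset it was called at -2.51 and -2.91.

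Itga1 encodes another collagen receptor subunit. Control libraries held 22.2, 21.5 and 16.7 CPM at day 0 and 7.88, 8.67 and 13.8 CPM at day 2. FHL2 libraries held 19.7, 19.4 and 25.9 CPM at day 0 and 13.8, 10.6 and 6.84 CPM at day 2. All day 2 values were below all day 0 values. Itga1 fell 2.00-fold in control (SE of log2 0.29, adjusted p = 0.00939) and by log2 1.06 in the FHL2 line (adjusted p = 0.00652). Without the sparse libraries the values were -1.23 and -1.65, the second with 1 FHL2 library left at day 2. The GC offset gave 0.65 and 0.39, where neither was called (adjusted p = 0.152 and 0.398). Its direction therefore depended on the offset.

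Itga6, a laminin receptor subunit, was at 18.4, 20.7 and 18.3 CPM in control libraries of day 0 and 21, 23.9 and 9.52 CPM in those of day 2. In FHL2 libraries it was at 23.8, 15.1 and 21.2 CPM at day 0 and at 11.3, 9.71 and 11.7 CPM at day 2. The control days overlapped and the FHL2 days did not. Itga6 was called lower in the FHL2 line (log2 -0.88, SE 0.29, adjusted p = 0.0201). That call was lost without FHL2 day 0 replicate 1 (adjusted p = 0.0836), without day 0 replicate 3 (0.0574), without day 2 replicate 2 (0.0736) and with the GC offset (log2 -0.31, adjusted p = 0.377). In control the value was -0.07 (adjusted p = 0.855), or 0.52 with the GC offset (adjusted p = 0.122), and the difference between the lines in this change was -0.81 (95% interval -1.69 to 0.08, adjusted p = 0.746).

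Itga3, a subunit that also binds laminin, gave 9.36, 11.4 and 10.6 CPM in control and 7.44, 8.45 and 6.08 CPM in FHL2 libraries at day 0. Its day 2 values were 11.5, 7.5 and 9.09 CPM and 9.15, 6.23 and 6.54 CPM. Days overlapped in both lines, with log2 values of -0.16 (95% interval -0.79 to 0.48) in control and 0.00 (-0.64 to 0.63) in the FHL2 line. With the GC offset they were -0.76 and -0.58 and not called (adjusted p = 0.0602 and 0.147).

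Itga2b is best known as the alpha subunit of the platelet fibrinogen receptor. It was at 7.87, 10.5 and 8.89 CPM in control and 9.97, 7.57 and 8.40 CPM in FHL2 libraries at day 0, and at 11.6, 9.11 and 10.5 CPM and 15.1, 14.9 and 10.1 CPM at day 2. Of the 4 platelet markers 3 had counts and Gp1bb had none, and their summed level was at most 1.83 CPM in any library. The day change was 0.20 (adjusted p = 0.557) in control and 0.62 (SE 0.27, adjusted p = 0.0601) in the FHL2 line. The FHL2 value passed with DESeq2 (adjusted p = 0.0427), with limma-voom (0.0426), with upper-quartile scaling (0.0372), with a filter at 1 CPM (0.0430) and without control or FHL2 day 2 replicate 3 (0.0363 and 0.0243), and was 0.03 with the GC offset. The control value was -0.42 with that offset (adjusted p = 0.239).

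Per kilobase of exon, Itga5 made up 54.4 ± 1.22% (SD, n = 3) of the summed alpha subunit level in control and 56.8 ± 0.507% in FHL2 libraries at day 0. At day 2 it made up 88.7 ± 1.60% and 88.9 ± 0.996%. The share of Itgav went from 25.9 ± 2.39% and 25.1 ± 0.190% to 3.36 ± 1.17% and 3.60 ± 0.711%. The ratio of Itga5 to Itgav was 1.87 to 2.31 over the 6 libraries of day 0 and 19.9 to 43.3 over the 6 of day 2. These shares and ratios carry no GC offset. With it the log2 day changes were smaller, at 0.68 and 0.54 for Itga5 and -1.68 and -1.66 for Itgav. After Itgav, the order in control at day 0 was Itga11, Itga6, Itga3, Itga2b and Itga1. Among these Itga6 differed from Itga3, and Itga3 from Itga2b, by less than the sum of their SDs (2.12 ± 0.147, 1.83 ± 0.179 and 1.66 ± 0.240 CPM per kilobase). At day 2 Itga11 stood sixth in both lines, at 1.17 ± 0.188 CPM per kilobase in control and 0.749 ± 0.781 in FHL2 libraries. Among beta subunits the order was Itgb1, Itgb5 and Itgb3 in all 4 groups, at 322 ± 22.2, 50.4 ± 2.89 and 4.84 ± 0.403 CPM per kilobase in control at day 0.

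**Figure D2:**
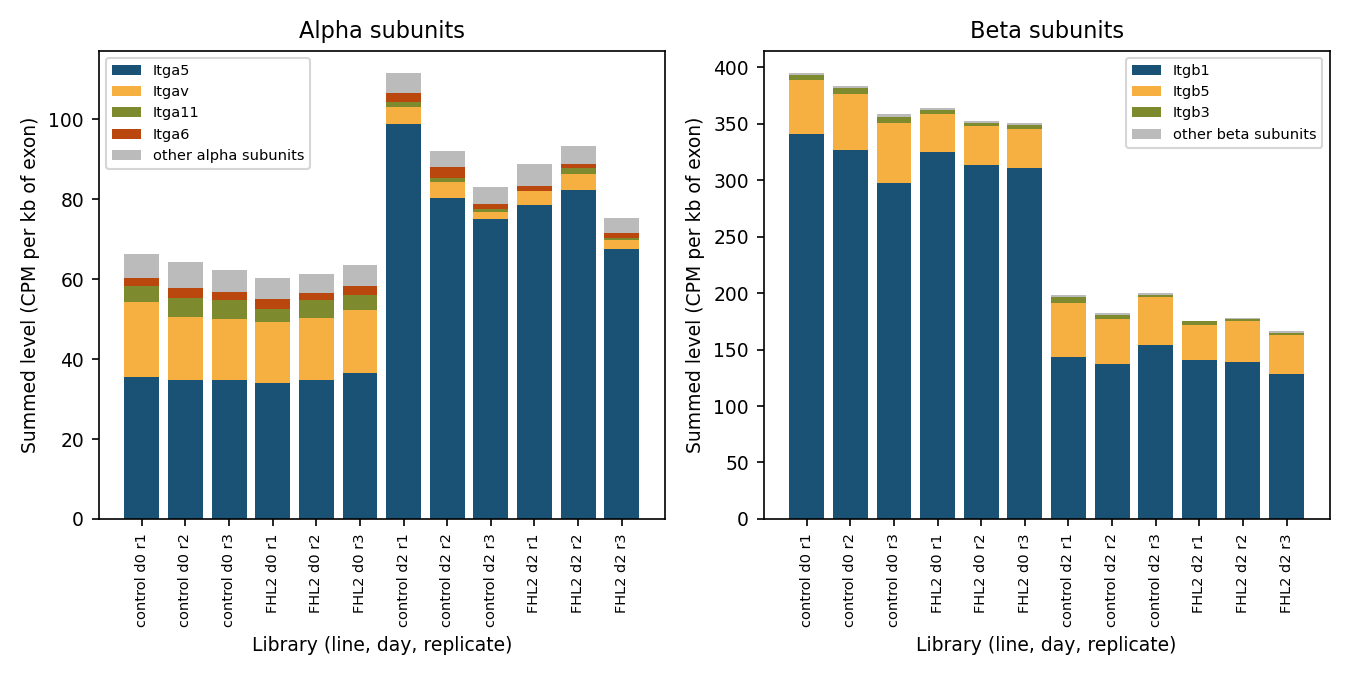
Summed level of alpha subunits (left) and beta subunits (right) in each library, in CPM per kilobase of exon, stacked by gene; d0 and d2 are the days and r1 to r3 the replicates. Itga5 is the largest alpha block in all 12 libraries and Itgb1 the largest beta block, and the Itgav block goes from 24.4% to 28.6% of the alpha bar at day 0 to 2.09% to 4.38% at day 2. The levels carry no GC offset.

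Among the beta subunits, Itgb1 pairs with most alpha subunits that bind matrix. It was the most abundant gene of the set, at 1392, 1333 and 1214 CPM in control and 1327, 1281 and 1270 CPM in FHL2 libraries at day 0. The day 2 values were 586, 560 and 629 CPM and 574, 566 and 525 CPM. Every library of day 2 was below every library of day 0. Itgb1 was 2.22-fold lower in control (log2 -1.15, SE 0.08, adjusted p = 2.89e-08) and 2.33-fold lower in the FHL2 line (log2 -1.22, SE 0.08, adjusted p = 2.02e-08), but at 44.7% GC it gave 0.09 and -0.10 with the GC offset and was not called (adjusted p = 0.630 and 0.603).

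Itgb5, which pairs with alpha V to bind vitronectin, had the smallest adjusted p of the set between the lines. At day 0 its level was 169, 178 and 190 CPM in control and 118, 121 and 121 CPM in FHL2 libraries. At day 2 it was 170, 140 and 152 CPM in control and 112, 129 and 120 CPM in FHL2 libraries. The highest FHL2 library was below the lowest control library on both days. Between the days Itgb5 gave log2 -0.22 in control (adjusted p = 0.0712) and 0.01 in the FHL2 line (95% interval -0.20 to 0.21). The control value passed without control day 2 replicate 1 (-0.28, adjusted p = 0.0439), with DESeq2 (-0.24, adjusted p = 0.0402) and with the GC offset (-0.77, adjusted p = 1.92e-05), and the FHL2 value was -0.55 with that offset (adjusted p = 0.000409).

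The windows before the start sites of these beta genes are shown because Itgb1 carries most of the beta level and Itgb5 came nearest the threshold between the lines. Itgb1 lies at chr8:128685404-128685653 and Itgb5 at chr16:33829415-33829664, both on the plus strand of GRCm38.p6, with capitals as above.
Itgb1: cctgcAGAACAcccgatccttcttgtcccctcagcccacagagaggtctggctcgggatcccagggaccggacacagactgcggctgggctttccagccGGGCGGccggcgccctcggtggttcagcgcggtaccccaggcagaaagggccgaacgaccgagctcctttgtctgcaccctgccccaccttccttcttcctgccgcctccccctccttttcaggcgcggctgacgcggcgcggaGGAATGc
Itgb5: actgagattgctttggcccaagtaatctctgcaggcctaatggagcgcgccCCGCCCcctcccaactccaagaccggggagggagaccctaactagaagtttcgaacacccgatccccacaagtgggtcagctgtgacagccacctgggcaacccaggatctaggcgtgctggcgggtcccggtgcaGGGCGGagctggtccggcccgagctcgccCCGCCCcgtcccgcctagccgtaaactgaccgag
The Itgb1 window held 1 GC box, 1 glucocorticoid half-site and 1 TEAD match, and the Itgb5 window 3 GC boxes.

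Itgb3, the partner of alpha V in another vitronectin receptor and of Itga2b in platelets, was at 27.8, 26.7 and 31.2 CPM in control and 19.5, 19.3 and 22.6 CPM in FHL2 libraries at day 0. Libraries of day 2 gave 28.1, 23.0 and 9.95 CPM and 19.3, 12.9 and 15.1 CPM. The control value of 9.95 CPM came from sparse replicate 3. Neither day change passed the test (log2 -0.48, adjusted p = 0.178, and -0.38, adjusted p = 0.293), nor did the values of -0.67 and -0.54 with the GC offset.

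Itgb1 made up 84.9 ± 1.68% of the beta level per kilobase in control at day 0 and 74.7 ± 2.28% at day 2. In FHL2 libraries the share was 89.1 ± 0.340% and 78.4 ± 1.42%. The summed level of the 27 integrin genes went from 1972 ± 99.1 to 1284 ± 89.1 CPM in control and from 1865 ± 21 to 1152 ± 79.1 CPM in the FHL2 line. The alpha sum was 443 ± 22.7 CPM at day 0 and 509 ± 78.7 CPM at day 2 in control, and 425 ± 13.1 and 457 ± 53.9 CPM in the FHL2 line. Per kilobase, Itgb1 stood at 5.00 ± 0.206 times all alpha subunits together in control at day 0 and at 1.54 ± 0.288 times at day 2, with 5.13 ± 0.253 and 1.59 ± 0.113 in the FHL2 line. Itgb1 alone went from a mean of 1313 to 592 CPM in control and from 1293 to 555 CPM in the FHL2 line. These sums, shares and ratios carry no GC offset, and Itgb1 was not called between the days with it.

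Of the adaptors that join beta tails to actin, Ilk encodes the pseudokinase at the centre of the ILK, PINCH and parvin complex. It was at 167, 169 and 190 CPM in control and 167, 167 and 174 CPM in FHL2 libraries at day 0. Then, at day 2, the level was 319, 298 and 392 CPM and 333, 324 and 324 CPM. The days did not overlap. Ilk rose 1.92-fold in control (log2 0.94, SE 0.10, adjusted p = 2.40e-06) and 1.93-fold in the FHL2 line (log2 0.95, SE 0.10, adjusted p = 2.15e-06), and was called with the GC offset at 0.65 and 0.64. In GENCODE M21 76.7% of its exon length lies opposite exons of Taf10, a general transcription factor subunit. Taf10 also rose, by 0.98 (SE 0.14) in control and 1.43 (SE 0.14) in the FHL2 line on the log2 scale. No source used here gives the strand setting of the counting, so reads of these 2 genes may not have been told apart.

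Lims1 encodes PINCH-1, which binds ILK. It was at 119, 109 and 86.8 CPM in control and 104, 88.4 and 89.3 CPM in FHL2 libraries at day 0. On day 2 it was at 22.8, 18.0 and 28.1 CPM and 31.1, 19.6 and 14.2 CPM. Every day 2 library was below every day 0 library. Lims1 fell 4.59-fold in control (log2 -2.20, SE 0.25, adjusted p = 3.49e-06) and 4.34-fold in the FHL2 line (log2 -2.12, SE 0.24, adjusted p = 4.78e-06). Its transcripts are among the poorest in GC of the set, at 43.1%, and with the GC offset the values were -0.51 and -0.61 and not called (adjusted p = 0.156 and 0.0947). The ratio of Ilk to Lims1 per kilobase went from 3.05 ± 0.750 to 26.4 ± 2.68 in control and from 3.23 ± 0.324 to 29.8 ± 10.9 in the FHL2 line. This ratio carries no GC offset, with which Ilk gave 0.65 and 0.64 beside the lower Lims1 values above. Its Ilk part may also hold reads of Taf10.

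Parva encodes alpha-parvin, the most abundant parvin here. It was at 297, 269 and 302 CPM in control and 291, 303 and 313 CPM in FHL2 libraries at day 0. The day 2 values were 339, 369 and 282 CPM and 355, 362 and 337 CPM. The control days overlapped through sparse replicate 3, at 282 CPM. The change of 0.19 (adjusted p = 0.104) in control and 0.22 (adjusted p = 0.0705) in the FHL2 line missed the threshold. Upper-quartile scaling and a filter at 1 CPM also called both. Without control day 2 replicate 3 both passed (0.36, adjusted p = 0.00520, and 0.23, adjusted p = 0.0277), and with the GC offset both were called at 0.51 and 0.50.

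Parvb, beta-parvin, was much lower, at 15.3, 12.9 and 13.7 CPM in control and 9.30, 13.2 and 10.1 CPM in FHL2 libraries at day 0. Libraries of day 2 gave 30.5, 18.7 and 28.6 CPM and 18.8, 16.9 and 15.3 CPM. Days did not overlap in either line. Parvb rose 1.86-fold in control (log2 0.89, SE 0.23, adjusted p = 0.00444) and 1.57-fold in the FHL2 line (log2 0.65, SE 0.23, adjusted p = 0.0280). The FHL2 call was lost without FHL2 day 0 replicate 1 (adjusted p = 0.117), day 0 replicate 3 (0.0952) or day 2 replicate 1 (0.0604). It was also lost without the sparse libraries (log2 0.51), which leaves 1 FHL2 library at day 2. With the GC offset neither line was called (log2 0.39 and 0.15).

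Fermt2 encodes kindlin-2, which binds beta tails and helps activate integrins. It was at 112, 113 and 110 CPM in control and 116, 108 and 116 CPM in FHL2 libraries at day 0. Then, at day 2, the level was 39.0, 49.4 and 30.2 CPM and 56.1, 45.3 and 36.3 CPM. Fermt2 fell 2.82-fold in control (log2 -1.49, SE 0.17, adjusted p = 5.13e-06) and 2.47-fold in the FHL2 line (log2 -1.30, SE 0.17, adjusted p = 1.72e-05). With the GC offset it was still called, at -0.77 and -0.61.

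Ptk2, focal adhesion kinase, and Pxn, the paxillin scaffold it works with, moved apart. Ptk2 was at 78.3, 74.4 and 71.3 CPM in control and 72.8, 74.5 and 74.2 CPM in FHL2 libraries at day 0, and at 40.5, 48.9 and 48.6 CPM and 35.0, 37.2 and 39.3 CPM at day 2. It fell 1.62-fold (log2 -0.70, SE 0.12, adjusted p = 0.000133) and 1.99-fold (log2 -0.99, SE 0.12, adjusted p = 5.94e-06), but gave 0.06 and -0.31 with the GC offset (adjusted p = 0.764 and 0.0904). Pxn was at 91.3, 90.6 and 106 CPM in control and 79.5, 81.6 and 87.9 CPM in FHL2 libraries at day 0, and at 194, 170 and 199 CPM and 163, 167 and 171 CPM at day 2. All day 2 libraries were above all day 0 libraries. Pxn rose 1.96-fold (log2 0.97, SE 0.10, adjusted p = 1.45e-06) and 2.01-fold (log2 1.01, SE 0.10, adjusted p = 1.02e-06), and was called with the GC offset at 0.35 and 0.41.

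Of the cadherins, Cdh11, the mesenchymal cadherin of fibroblasts, was at 1029, 911 and 890 CPM in control and 1056, 952 and 966 CPM in FHL2 libraries at day 0. On day 2 it was at 483, 399 and 427 CPM and 471, 414 and 343 CPM. The days were far apart in both lines. Cdh11 fell 2.16-fold in control (log2 -1.11, SE 0.11, adjusted p = 1.42e-06) and 2.42-fold in the FHL2 line (log2 -1.28, SE 0.11, adjusted p = 4.41e-07), and gave -0.04 and -0.29 with the GC offset, where it was not called (adjusted p = 0.863 and 0.132).

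Cdh2, N-cadherin, was at 206, 184 and 192 CPM in control and 227, 229 and 217 CPM in FHL2 libraries at day 0. The day 2 values were 169, 176 and 147 CPM and 170, 162 and 145 CPM. Day 2 lay below day 0 in both lines. Cdh2 was called lower in control (log2 -0.24, SE 0.09, adjusted p = 0.0446) and in the FHL2 line (log2 -0.50, adjusted p = 0.000457), but with the GC offset Cdh2 was called higher, at 0.87 and 0.53 (adjusted p = 1.87e-05 and 0.00116). The control call was also lost in 11 of the 12 fits that leave out 1 library, in all but the one without control day 0 replicate 2 (adjusted p = 0.0539 to 0.392, the last without control day 2 replicate 3). Per kilobase the ratio of Cdh11 to Cdh2 went from 4.41 ± 0.181 to 2.42 ± 0.318 in control and from 4.01 ± 0.232 to 2.33 ± 0.189 in the FHL2 line, without the GC offset.

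**Figure D3:**
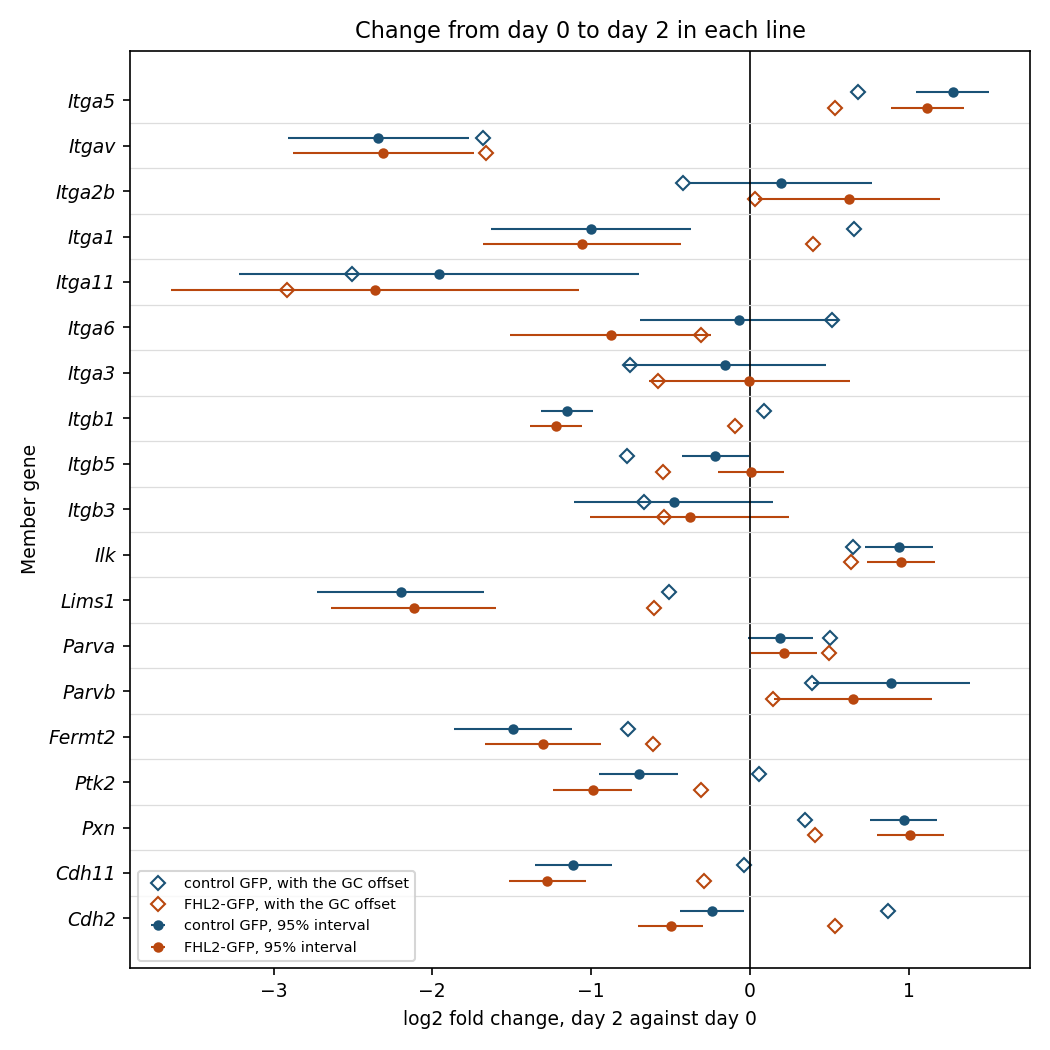
log2 fold change of day 2 against day 0 for the 19 genes in each line; filled dots are the edgeR values with 95% intervals, and open diamonds are the values with the GC offset (n = 3 libraries per group). Itga5, Ilk and Pxn lie right of 0 and Itgav, Itga11 and Fermt2 left of it under both, while the diamonds of Itga1 and Cdh2 lie right of 0 and those of Itgb1 and Cdh11 near it.

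**Figure D4:**
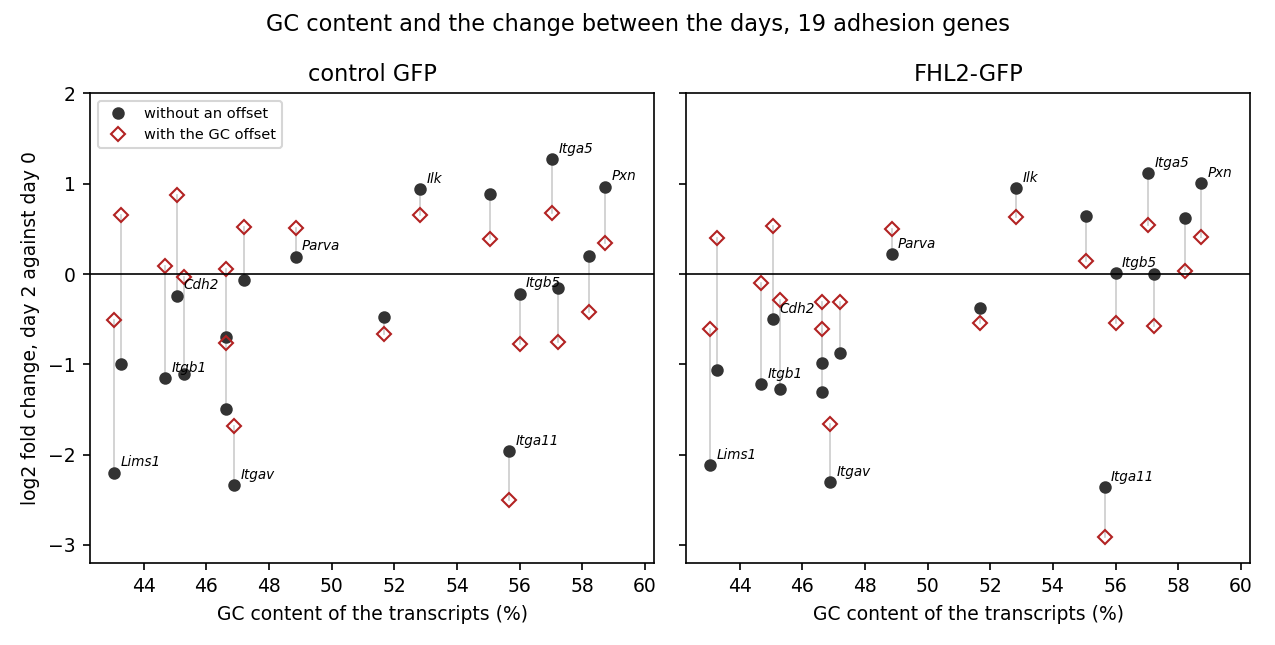
log2 fold change of day 2 against day 0 plotted on the GC content of each gene's transcripts for the 19 genes, control GFP left and FHL2-GFP right; lines join the value without the offset (filled) to that with it (open). Genes at or below 48.9% GC are moved up by the offset and those at or above 51.7% are moved down, and Itga11, at 55.7% GC, is low under both.

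The lines were then compared on each day. At day 0 none of the 29 tested genes was called in either direction, where 0.0208% of all genes were called higher and 0.0277% lower. There were 2 genes at an unadjusted p under 0.05 (600 of all genes). At day 2 again none was called, beside 0.72% higher and 1.35% lower of all genes, and 7 had an unadjusted p under 0.05 (2611 of all genes). DESeq2 called Itgb5 at day 0 and Itgb5 and Itgb2 at day 2, all lower, and limma-voom called Itgb5 at day 0 and no gene of the set at day 2. The edgeR fit shares 1 spread per gene over all 12 libraries, although day 2 libraries varied more than day 0 libraries. With only the day 0 libraries in it, 126 of 14044 genes were called higher and 120 lower, among them Itga9 (higher) and Itgb5 (lower). With only those of day 2, 8 of 12819 were called higher and 31 lower, and no gene of the set.

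Itgb5 came nearest the threshold on both days. In the FHL2 libraries its level was 120 ± 1.34 CPM against 179 ± 10.3 in control at day 0, 1.49-fold lower (log2 -0.58, 95% interval -0.78 to -0.37, edgeR adjusted p = 0.0643). The day 2 levels of 121 ± 8.75 and 154 ± 15.4 CPM put the FHL2 line 1.28-fold lower (log2 -0.35, 95% interval -0.56 to -0.14, edgeR adjusted p = 0.0795). Over the settings tried, the day 0 difference passed without a filter on low counts (adjusted p = 0.00466), with DESeq2 (2.54e-05), with limma-voom (0.0167), with only the day 0 libraries in the fit (0.00447) and without the sparse libraries (0.0130). The 12 fits that each leave out 1 library gave log2 values of -0.62 to -0.53 with adjusted p of 0.0775 to 0.357. The day 2 difference passed only with DESeq2 (adjusted p = 0.0159), and leaving out 1 library gave -0.42 to -0.26. The difference between the lines in the day change of Itgb5 was not called (log2 0.22, 95% interval -0.07 to 0.52, adjusted p = 0.806).

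Most other genes of the set had intervals around 0. At day 0 Itgb1 gave -0.02 (95% interval -0.18 to 0.14), Itga5 0.00 (-0.22 to 0.23), Ilk -0.05 (-0.27 to 0.16) and Parva 0.07 (-0.14 to 0.27) in FHL2 against control. Among the 19 genes described singly, apart from Itgb5, the lines did not overlap at day 0 for Itga3 (-0.51), Itgb3 (-0.48), Pxn (-0.21) and Cdh2 (0.21), each with an adjusted p of 1. Of the tested genes below 5 CPM, Lims2, Itga7, Itga8, Itga9 and Itga10 did not overlap either. The share of all tested genes without overlap was not computed, so these separations are not set against it. At day 2 Parvb (log2 -0.61, adjusted p = 0.182), Itga6 (-0.74, 0.203) and Ptk2 (-0.31, 0.186) missed the threshold, and among these only Ptk2 had libraries that did not overlap.

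The sparse libraries bore on this comparison. Without them 4 genes were called lower in the FHL2 line at day 2: Itgav (log2 -0.97, adjusted p = 0.00278), Itga6 (-0.97, 0.0330), Itga11 (-1.16, 0.0307) and Itgb3 (-0.79, 0.0363), when 6.32% of all genes were called lower. This leaves 1 FHL2 library at day 2, replicate 3, which is assumed to vary like the other groups, and its Itgav level of 22.5 CPM was the lowest of the FHL2 line. Leaving out control day 2 replicate 3 alone brought Itga6 past the threshold (log2 -1.08, adjusted p = 0.0286).

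The difference between the lines in the day change was called for no tested gene of the set, where 0.0% of all genes were called higher and 0.00693% lower. Only Itgb2 had an unadjusted p under 0.05 (smallest adjusted p = 0.705, and DESeq2 and limma-voom called none). Itgav moved by -2.34 and -2.31 and Itgb1 by -1.15 and -1.22, and the interval of the difference was -0.75 to 0.81 for Itgav and -0.30 to 0.16 for Itgb1. Without the sparse libraries, which leaves 1 FHL2 library at day 2, the Itgav difference was -0.88, from 0.03 with all libraries.

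**Figure D5:**
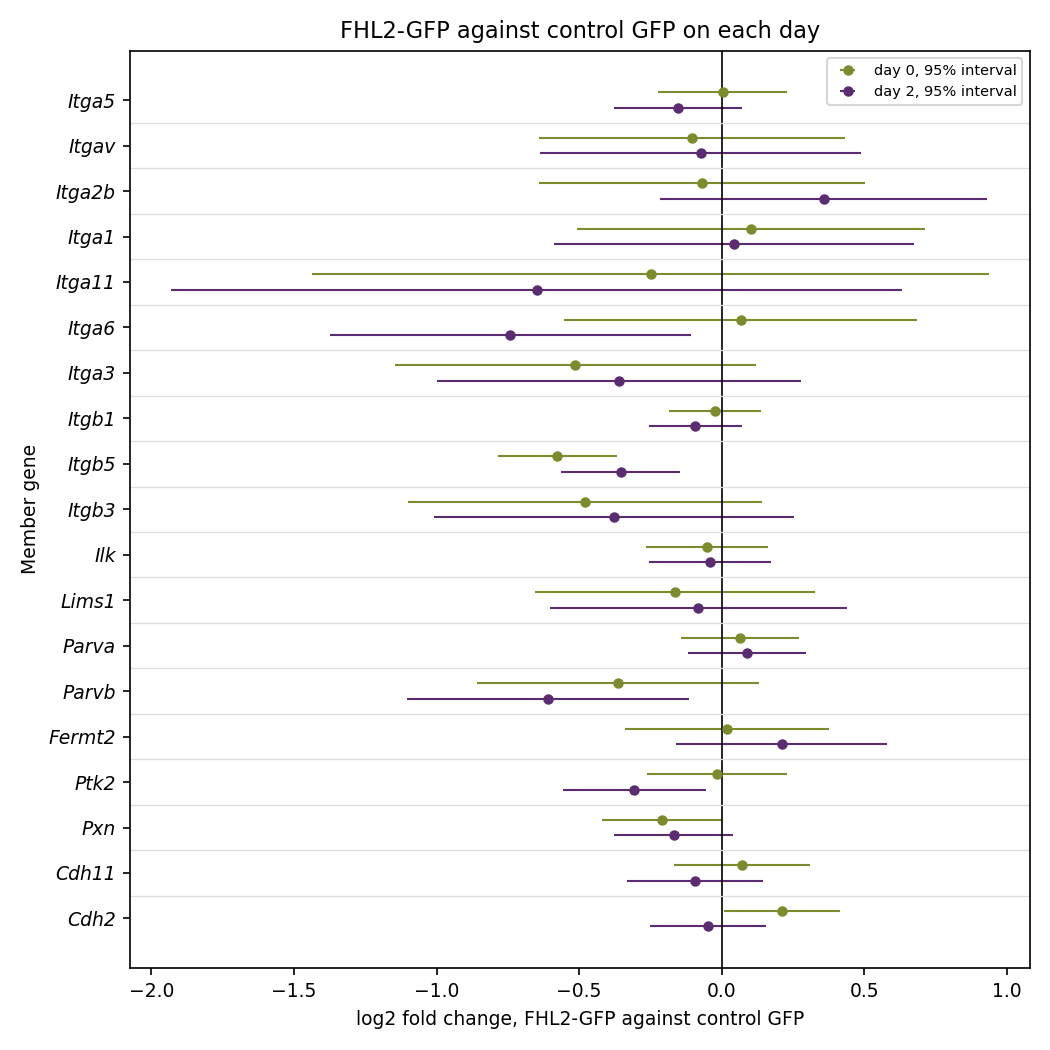
log2 fold change of FHL2-GFP against control GFP for the 19 genes at day 0 and day 2, with 95% intervals from the edgeR fit (n = 3 libraries per group). Itgb5 lies left of 0 on both days, at -0.58 and -0.35, and for most other genes at least 1 interval spans 0.

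The 10 tested genes below 5 CPM (mean 0.469 to 2.34 CPM) were Lims2, Itga7, Itga8, Itga9, Itga10, Itgal, Itgb2, Itgb4, Itgb7 and Itgb8. Itga8, a receptor subunit for RGD ligands, and Itga9, which binds tenascin C among others, were called lower at day 2 in both lines. Itga9 had 45 counts over the control libraries of day 0 and none over those of day 2, at least 9.42-fold lower against a floor of 3 counts over the group. The leukocyte subunit Itgal was called lower in control only, and the collagen receptor subunit Itga10 and the leukocyte beta 2 chain Itgb2 in the FHL2 line only. With the GC offset Itga8 was called in neither line. With 1 library left out in turn its call was kept in 9 of 12 fits in control and in 4 of 12 in the FHL2 line (adjusted p up to 0.0941). In the FHL2 line it was also lost without the sparse libraries, which leaves 1 FHL2 library at day 2. The call of Itga10 was kept in 9 of 12 fits and likewise lost without the sparse libraries. That of Itgal was kept in 11, and those of Itga9 and Itgb2 in all 12. Itga9 also stood higher in FHL2 than in control libraries at day 0, at 2.54, 2.39 and 4.32 against 1.04, 0.755 and 0.491 CPM, but was called only with the day 0 libraries alone in the fit (log2 2.01, adjusted p = 0.0263, against 1 with all libraries). With Itga9 put at its bound, the median over the 29 tested genes in control stayed at -0.48. Leukocyte and macrophage markers summed to 9.35 to 20.7 CPM per library, with Adgre1 and Tyrobp at 0 in all, and their part in these low values was not tested.

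A further 8 integrin genes were not tested. Itgad, Itgb2l and Itgb6 had no count in any library. Itga2, Itgae, Itga4, Itgax and Itgam had 56, 43, 10, 6 and 2 counts over all 12 libraries. The floor covers counting error alone, as no molecular tags were used.

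Other adhesion genes were described from lists by role, and no list was tested as a set. Over all genes tested, 26.3% rose and 30.8% fell in control and 25.8% and 30.2% in the FHL2 line. The all-gene medians were -0.14 and -0.11. With the GC offset 3554 of all 14435 genes rose and 2062 fell in control, and 3345 and 2152 in the FHL2 line. These values stand beside the counts of every list below. Of 20 tested linkers to actin, 12 rose and 5 fell in control and 10 and 6 in the FHL2 line, with median log2 values of 0.44 and 0.32. Csrp1, a LIM protein of actin bundles, rose by 1.23 (adjusted p = 3.50e-07) and 1.24 (3.42e-07). Lpp, a relative of zyxin, fell by 1.12 and 1.43, but gave 0.08 and -0.31 with the GC offset, where neither was called. Tes, a LIM protein of adhesions, fell by 1.23 and 1.10, but the control value was -0.43 and not called with the offset (adjusted p = 0.0993). Pdlim5 fell by 1.09 and 1.21, with -0.60 in the FHL2 line with the offset, still called. With that offset the linkers counted 5 higher and 6 lower in control and 2 and 6 in the FHL2 line.

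Among 13 tested genes of the talin, kindlin and vinculin core, 3 rose and 3 fell in control and 3 and 4 in the FHL2 line. Tln2, the second talin, rose by 1.39 and 0.94 and was called with the GC offset at 1.05 and 0.61. The small GTPase Rap1a, which helps bring talin to integrins, fell by 2.88 and 2.26 but was not called with the offset (-0.48 and -0.03). Sharpin, an integrin inhibitor, rose by 0.78 and 0.82 and was not called with it. Rap1b, a close relative of Rap1a, gave -1.13 and -1.14 without the offset and was called higher, at 1.02 and 0.78, with it. Of 25 signalling adaptors and kinases 7 rose and 11 fell in control and 7 and 13 in the FHL2 line, with Git1, a paxillin partner, up by 1.02 and 1.10 (0.40 and 0.51 with the offset, both called) and the Src family kinase Yes1 at -2.93 and -2.27 (-0.87 and -0.39 with the offset, neither called). Bcar1, the Cas scaffold, rose by 0.90 and 0.55, and Csk, which restrains Src kinases, by 0.74 and 0.75. Arhgef6, an exchange factor for Rac, fell by 2.42 and 2.56. With the offset Bcar1 in control (0.28), Csk in the FHL2 line (0.18) and Arhgef6 in both lines were not called. With the offset this list counted 5 and 4 in control and 4 and 4 in the FHL2 line.

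Of 15 tested tetraspanins and lateral partners 7 rose and 5 fell in control and 8 and 4 in the FHL2 line. Sdc4, a heparan sulfate co-receptor in focal adhesions, rose by 2.34 (adjusted p = 1.40e-08) and 2.35 (1.51e-08), and by 2.36 in both lines with the GC offset. Sdc1, another syndecan, rose by 1.48 and 1.44, and Cd82, a tetraspanin, by 1.41 and 1.55. With the offset Sdc1 in control (0.89) and Cd82 in the FHL2 line (1.04) were still called. Cav2, a caveolin, fell by 2.14 and 2.11 but gave 0.11 and -0.16 with the offset. The syndecan Sdc2 gave -1.17 and -0.66 but was called higher with the offset, at 0.85 and 1.17.

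Among 20 tested matrix ligands of integrins 6 rose and 4 fell in control and 4 and 5 in the FHL2 line. Fbln5, which binds integrins through an RGD motif, rose by 1.67 and 1.69 and Thbs1, thrombospondin 1, fell by 2.72 and 3.14, and both were called in the same direction with the GC offset. Postn fell by 1.96 and 1.80 but gave 0.02 and -0.03 with the offset. Lamb1 rose by 0.63 and 0.32. Mfge8, another RGD protein, rose by 0.51 and 0.70, but the FHL2 value was 0.13 and not called with the offset (adjusted p = 0.372). Of 8 tested catenins and nectins 2 rose and 3 fell in control and 1 and 4 in the FHL2 line. Nectin2 rose by 1.15 and 0.82 (0.52, called, and 0.22, not called, with the offset), while Afdn, the adaptor of nectins to actin, fell by 1.13 and 1.14 and was called with the offset at -0.90 and -0.94. Nectin3 fell by 1.04 and 1.60 but gave 0.14 and -0.55 with the offset, neither called. Nectin1 was called higher in control (0.63, adjusted p = 0.0481) but not with the offset (adjusted p = 0.989) or with RLE scaling (0.0536), and in 4 of the 12 fits with 1 library left out. Cdh13, a cadherin with a lipid anchor that binds adiponectin, was the 1 of 2 tested other cadherins that was called. It rose by 2.13 (adjusted p = 5.13e-10) and 1.88 (adjusted p = 1.89e-09), opposite to Cdh11, and by 2.34 and 2.06 with the GC offset.

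Between the lines, 5 genes of these lists were called at day 2, all lower in FHL2 libraries, and none at day 0. Over all genes tested, 0.72% were called higher and 1.35% lower at day 2, and 0.0208% and 0.0277% at day 0. These calls share 1 spread per gene with the day 0 libraries, which varied less. With only the day 2 libraries in the fit, 8 of 12819 genes were called higher and 31 lower. Values of the 5 genes in that fit are not given here. Tnc, tenascin C, was at 375, 408 and 292 CPM in control and 206, 186 and 162 CPM in FHL2 libraries (log2 -0.96, SE 0.12, adjusted p = 0.00165). Sorbs3, vinexin, gave -0.68 (adjusted p = 0.0231), Lamb1, laminin beta 1, -0.53 (0.00719), Cdh13 -0.50 (0.0117) and Sdc1 -0.45 (0.00932). With 1 library left out in turn Tnc and Lamb1 kept their call in all 12 fits, Cdh13 and Sdc1 in 11 and Sorbs3 in 9. Leaving out the sparse libraries leaves 1 FHL2 library at day 2. The log2 values were then -1.31 for Tnc, -0.78 for Sorbs3, -0.74 for Lamb1, -0.68 for Cdh13 and -0.52 for Sdc1. Tnc was also the 1 gene of the whole table whose change between the days differed between the lines (log2 -1.30, adjusted p = 0.0276), a call kept in 3 of those 12 fits.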

How the data were processed

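Polyadenylated RNA of 12 libraries was measured, 3 in each of 4 groups. The deposited values are raw counts per gene made by the authors. The submitters' processing notes name HISAT2 2.2.1 and GRCm39, HTSeq 0.11.0, FastQC 0.11.9 with Trimmomatic 0.39, and limma in R 4.1.0. No source used here gives the strand setting or the annotation release. Depth was 10047708 to 21872139 counts per library, and a low gene is correspondingly imprecise.

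Groups were taken from the sample titles. In R 4.3.3, edgeR 4.0.16 was fitted to all 12 libraries (filterByExpr, TMM scaling, 1 mean per group, quasi-likelihood test, Benjamini-Hochberg adjustment over 14435 genes, called under 0.05). The script was tested on simulated data. Alternatives were other scalings and filters, DESeq2 1.42.0, limma-voom (limma 3.58.1), only the groups compared, a GC offset (spline with 8 degrees of freedom), a replicate block, and leaving out single libraries or the 3 sparse ones. Levels per kilobase and GC content used GENCODE M21 exons (GRCm38), and promoter windows RefSeq GRCm38.p6.

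All genes meeting the symbol rule are included. Itgb3bp, which encodes no subunit, was left out. Those with a mean of at least 5 CPM are described singly, and from each list the 2 called genes with the largest change in each direction. A gene this rule names is not reported here. Members and lists were chosen with earlier results of these data known.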

Additional observations from a re-analysis of the deposited data

How the results depend on the processing

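Replicate numbers did not pair the libraries (correlation of deviations of same-numbered libraries -0.0862 to 0.105), and a fit with the replicate block changed no call among the 19 genes described singly. With it 13 genes fell in control, where 4381 of all 14435 genes tested fell. Counts of adhesion genes changed as follows. At day 0, 1 gene was called higher with only the groups compared (Itga9), and 1 lower without a filter, with DESeq2, with limma-voom, with only the groups compared and without the sparse libraries (Itgb5). At day 2 the count lower in FHL2 libraries was 1 without a filter (Itgb2), 2 with DESeq2, 4 without the sparse libraries, and 0 to 1 with single libraries left out. Without the sparse libraries 8 genes rose in control (29.5% of all genes). That fit keeps 1 FHL2 library at day 2, and the difference in day change of Itgav was -0.88 in it. With the GC offset, with or without the replicate block, 6 genes fell in control and 7 in the FHL2 line. Of all 14435 genes, 2062 and 2152 fell with the offset alone, and 1954 and 2049 with the block. Among called changes, the direction turned under the GC offset in control for Itga1 (0.65, and 0.61 with the block), Itgb1 (0.0882 and 0.0799), Ptk2 (0.0597 and 0.0508) and Cdh2 (0.87 and 0.87). In the FHL2 line it turned for Itga1 (0.39 and 0.44) and Cdh2 (0.53 and 0.53). Of changes not called without the offset, Itgb5 in the FHL2 line turned to -0.55 (-0.55 with the block) and was called, and Itga6 (0.52) and Itga2b (-0.42) turned in control and were not. The offset's own construction removes the average relation with GC content; the cause of the other changes was not tested. The depth limits genes below 5 CPM, and the spread of the day 2 libraries limits differences between the lines.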
